A study of Mus musculus with 12 samples.

Results

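The genes described here encode the nuclear pore and the receptors that carry cargo through it. The nuclear pore is built from nucleoporins. Importin alpha proteins recognise the nuclear localization signal of a cargo and attach it to importin beta, encoded by *Kpnb1*, which passes through the pore, whereas most relatives of importin beta bind their cargo directly. Exportins carry cargo outward, and the small GTPase Ran sets the direction by releasing imported cargo inside the nucleus. Importin alpha genes are known to replace each other during germ cell differentiation, and the question here was which members of each receptor class rose while others fell between the populations.

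Members were all genes named alone by a probeset and whose symbol starts with Nup, Kpna, Ipo, Xpo or Tnpo followed by a digit, together with *Xpot* and *Kpnb1*. The rule found 42 of the 18193 genes that the array names by such probesets, with 111 of 34945 probesets. They comprised 6 importin alpha genes (14 probesets), 11 genes of the importin beta family (30 probesets), 6 exportins (21 probesets) and 19 nucleoporins (46 probesets). Of the 42 genes, 9 had a single probeset and 33 had several. Expression was measured on Affymetrix whole-genome mouse arrays in flow-sorted cells of B6 (C57BL/6J) and PWD (PWD/Ph) males aged 8 to 10 weeks. PWD was bred from wild mice of the subspecies *musculus*. The labels name no treatment and no engineered allele in either strain. In each strain 3 populations were sorted. The prepachytene gate held spermatocytes in leptotene and zygotene and those entering pachytene, the pachytene gate those in the later part of that stage together with diplotene, and the last gate spermatids, with 2 arrays for each of the 6 groups and 12 arrays in all. The duplicates came from 2 animals according to the series, but the labels do not tie a replicate number to an animal. The p-values set differences between group means against the spread between both sorts of a group, pooled over all 6 groups. That spread may in part be technical.

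All values are log2 expression, and a log fold-change is a difference on this log2 scale. Each gene is represented by its brightest probeset, the highest by mean, unless another is described, and levels are not compared between probesets. The background level was 4.68, the 95th percentile of 60 probesets of genes of other organs, and 40 of the 42 genes had a mean above it, the exceptions being *Kpna7* and *Nup210l*. Pearson's r between both arrays of a group ranged from 0.987 to 0.996 over probesets, which are not independent replicates.

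The sorted populations were checked against marker lists. The 15 prepachytene markers averaged 11.86 to 12.33 on the prepachytene arrays and 7.09 to 7.99 on the others, and the 12 pachytene markers averaged 12.07 to 12.56 on the pachytene arrays and 8.90 to 11.43 on the others. The 14 spermatid markers averaged 12.77 to 13.64 in spermatids, but also 10.54 to 11.48 in prepachytene cells against 9.61 to 10.25 in pachytene cells, and all 14 were above the background level in each group. Spermatogonial markers (11 genes, 8 above the background level in prepachytene cells) averaged 6.69 to 7.61 on the prepachytene arrays against 3.41 to 3.94 elsewhere. Sertoli cell markers (12 genes) averaged 5.92 to 7.05 there against 4.13 to 4.39 in pachytene cells, and 7 of 12 in B6 and 8 of 12 in PWD were above the background level in prepachytene cells. Of this list *Clu* read 12.77 to 14.51 in prepachytene cells against 7.43 to 8.12 in pachytene cells, and *Ctsl* 13.64 to 14.04 against 6.96 to 7.91, whereas *Amh*, *Fshr* and *Gata4* were below the background level on every array. In spermatids the Sertoli list averaged 4.61 to 4.74 in B6 and 4.97 to 5.43 in PWD, with 5 and 7 of 12 genes above the background level. The means of the lists of Leydig cells and of peritubular and blood cells stayed between 2.67 and 3.75. Single genes of these lists were higher. *Acta2* read 4.96 to 7.94 over all arrays, and *Cyp17a1* read 5.58 and 6.16 in PWD spermatids against 2.56 on both B6 spermatid arrays. The list means of spermatogonia and Sertoli cells moved in the same direction as the members that fell from prepachytene to pachytene. The spermatid list mean also fell in this step and then rose into spermatids, as did the members that fell and then rose. The part of any of these cells in those changes was not tested. Some genes of these lists did not fall, such as *Id4* (10.56 to 12.06 in prepachytene cells, 12.02 to 12.91 in pachytene cells) and *Dhh* (4.75 to 4.88 and 4.78 to 4.94). *Stra8* was part of both the prepachytene and the spermatogonial list. In sorted bulk samples, fewer cells of a type and less RNA per cell cannot be told apart.

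The sequences of 4 promoters introduce the switch within the importin beta family, in which, over both strains, *Ipo5* and *Tnpo1* rose in both steps and *Ipo7* and *Tnpo3* fell in both. *Ipo5* and *Ipo7* encode importins known for carrying ribosomal proteins and histones, *Tnpo1* the transportin of RNA-binding proteins, and *Tnpo3* the importer of splicing factors rich in serine and arginine. Each window spans 250 bases before to 50 bases after a RefSeq start on build GRCm38.p6, and for *Ipo5* and *Tnpo1*, with 2 windows each, the most upstream of the table is shown, which for *Ipo5* lies inside the annotated span of the gene. Each is printed 5′ to 3′ along the gene. Capitals mark the motifs searched on both strands, namely TGACG, a short form of the cAMP response element (CRE), AACTG, the core of the MYB site, and GTTGCC, a part of the RFX site.
Ipo5, chr14:120910944-120911243, plus strand: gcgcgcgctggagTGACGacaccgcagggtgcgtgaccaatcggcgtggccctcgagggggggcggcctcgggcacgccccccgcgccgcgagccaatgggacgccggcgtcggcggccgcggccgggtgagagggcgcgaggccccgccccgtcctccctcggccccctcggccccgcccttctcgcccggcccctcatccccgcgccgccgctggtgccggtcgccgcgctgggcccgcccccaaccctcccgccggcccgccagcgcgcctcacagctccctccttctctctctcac
Tnpo1, chr13:98926335-98926634, minus strand: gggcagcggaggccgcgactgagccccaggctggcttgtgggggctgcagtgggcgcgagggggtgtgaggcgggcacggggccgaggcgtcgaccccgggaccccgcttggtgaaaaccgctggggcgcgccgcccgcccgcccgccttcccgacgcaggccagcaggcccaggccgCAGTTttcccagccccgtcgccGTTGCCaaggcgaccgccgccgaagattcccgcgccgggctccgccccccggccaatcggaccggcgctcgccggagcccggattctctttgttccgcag
Ipo7, chr7:110018065-110018364, plus strand: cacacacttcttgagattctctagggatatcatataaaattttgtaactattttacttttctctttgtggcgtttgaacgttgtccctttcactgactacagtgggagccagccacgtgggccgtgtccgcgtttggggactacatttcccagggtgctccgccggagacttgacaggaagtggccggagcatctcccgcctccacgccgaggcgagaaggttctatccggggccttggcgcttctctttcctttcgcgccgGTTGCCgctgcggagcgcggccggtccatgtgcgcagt
Tnpo3, chr6:29609800-29610099, minus strand: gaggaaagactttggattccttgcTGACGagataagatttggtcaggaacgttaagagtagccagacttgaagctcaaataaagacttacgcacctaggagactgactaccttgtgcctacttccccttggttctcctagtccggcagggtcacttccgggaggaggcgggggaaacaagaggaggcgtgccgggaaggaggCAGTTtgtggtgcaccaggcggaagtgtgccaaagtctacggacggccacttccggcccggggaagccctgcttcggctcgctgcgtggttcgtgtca
The printed windows of *Ipo5* and *Tnpo3* held a short CRE, those of *Tnpo1* and *Tnpo3* a MYB core, and those of *Tnpo1* and *Ipo7* an RFX motif, so no motif set the risers apart from the fallers. Among all 32851 windows, 20.8% held the short CRE, 44.8% the MYB core and 12.5% the RFX motif. Promoter windows were at hand for 34 of the member genes, of which 15 held the short CRE, 14 the MYB core and 4 the RFX motif in at least 1 window. The full CRE, TGACGTCA, which contains the short form, occurred in 1.79% of all windows and in 2 member genes, *Nup133* and *Nup214*. A match is a description of the letters and no evidence of binding.

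From prepachytene to pachytene, over both strains, 19 of the 42 genes rose, 17 fell and 6 did not pass the threshold of an adjusted p of 0.05 in limma. Among the 9693 genes above the background level, 41.2% rose and 41.2% fell in this comparison, so the members moved about as often as other genes. The median log fold-change was 0.14 over the members and 0.02 over those 9693 genes. From pachytene to spermatids, 9 members rose, 22 fell and 11 did not pass, against 25.7% of the 9693 genes that rose and 41.6% that fell. The medians of this second step were -0.36 over the members and -0.26 over all genes above the background level. Both steps share the pachytene arrays. When each array was centred on its probesets above the background level, the median of all genes shifted by 0.34 in the first step and by 0.24 in the second, and the members divided into 23 that rose and 15 that fell in the first step and 16 and 20 in the second. After quantile normalization was repeated, with shifts of 0.34 and 0.15, they divided into 21 and 17 and into 14 and 20. Without PWD prepachytene replicate 2 and PWD pachytene replicate 1, the arrays of their groups with more spermatid marker signal, 18 rose and 16 fell in the first step and 9 and 21 in the second.

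**Figure D1:**
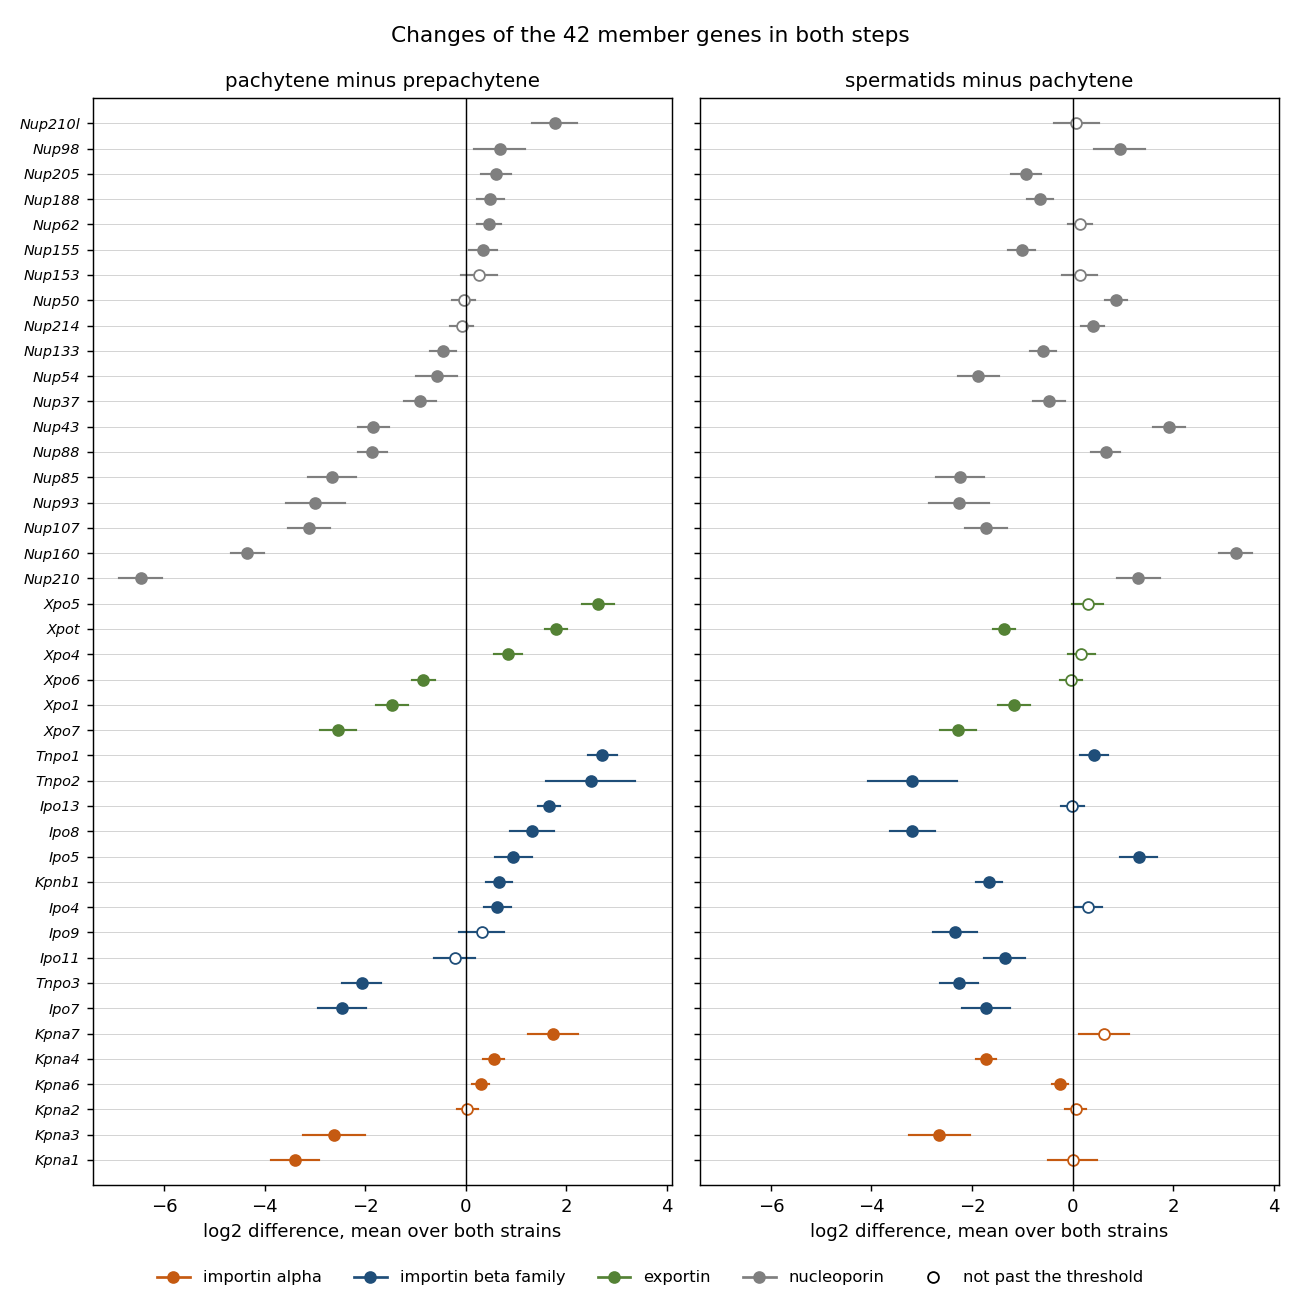
Log2 differences of the 42 member genes between consecutive populations, each the mean of both strains, with the 95% confidence interval from limma as a line. Filled circles passed the adjusted p threshold of 0.05 and open circles did not; colours give the 4 classes, and *Nup210* at -6.47 lies farthest to the left.

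The direction of these changes was shared by the strains in nearly all cases. Of the 19 genes that rose into pachytene, 18 had the same sign in each strain, the exception being *Kpna7*, and of the 17 that fell, 16 did, the exception being *Nup54* (-1.19 in B6 and 0.02 in PWD). In the step into spermatids all 9 rises and all 22 falls had the same sign in each strain. A call on the mean of both strains favours genes with the same sign in each. The share of such genes among all called genes is not given here. A switch was called where a gene of a class rose and another fell in the same step with the same sign in each strain. By this rule all 3 receptor classes switched into pachytene, and under both other scalings each class again held genes that rose and genes that fell. The rule asks for only 1 rise and 1 fall, while 41.2% of all genes above the background level rose and 41.2% fell in this step. Groups of other genes were not put to the rule, so meeting it does not set these classes apart. Into spermatids the importin beta family alone switched as deposited, while no importin alpha gene and no exportin passed as a rise. Under the other scalings *Kpna7*, *Xpo4* and *Xpo5* passed as rises in that step, and on centred arrays *Kpna2* did too.

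Within B6 alone, 16 members rose and 17 fell into pachytene (35.6% and 37.3% of the genes above the background level), and within PWD 13 rose and 17 fell (37.2% and 37.1%). Into spermatids 10 rose and 20 fell in B6 (24.1% and 31.7%), and 6 rose and 21 fell in PWD (20.9% and 37.3%). Of the rises over both strains, 10 of 19 into pachytene and 5 of 9 into spermatids passed in each strain, as did 14 of 17 and 19 of 22 falls.

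Among the importin alpha genes, *Kpna1* and *Kpna3* fell into pachytene while *Kpna4* and *Kpna6* rose, and *Kpna2* passed in neither step as deposited. *Kpna1* (Chr 16, 35983288 to 36037136, GRCm38) read 11.24 and 10.86 in B6 prepachytene, 8.09 and 7.56 in B6 pachytene and 8.84 and 8.77 in B6 spermatids, against 11.24 and 11.46, 7.39 and 8.16 and 6.99 and 6.61 in the same populations of PWD. All prepachytene arrays lay above all pachytene arrays, and the spermatids of B6 lay above those of PWD. The log fold-change into pachytene was -3.40 (standard error 0.21, adjusted p = 2.5e-06, limma). From pachytene to spermatids it was 0.00 over both strains (standard error 0.21, 95% interval -0.48 to 0.49), being 0.98 in B6 (adjusted p = 0.0438) and -0.97 in PWD (adjusted p = 0.0471).

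*Kpna3* (Chr 14, 61365186 to 61439947) declined at both steps. Its arrays read 11.67 and 11.81 in B6 prepachytene, 8.86 and 8.48 in B6 pachytene and 5.60 and 5.81 in B6 spermatids, against 11.01 and 10.38, 7.92 and 9.09 and 6.28 and 6.07 in the same populations of PWD. The 3 populations did not overlap within either strain. It fell by 2.63 into pachytene (standard error 0.26, adjusted p = 5.3e-05, limma) and by 2.65 into spermatids (standard error 0.26, adjusted p = 0.0001). Its other probesets above the background level fell in both steps as well, by 2.37 and 3.85 in the first and by 1.24 and 0.90 in the second.

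*Kpna4* (Chr 3, 69072221 to 69127092) rose slightly into pachytene and fell into spermatids. It read 12.86 and 12.95 in B6 prepachytene, 13.18 and 12.85 in B6 pachytene and 11.69 and 11.62 in B6 spermatids, against 12.73 and 12.59, 13.60 and 13.69 and 11.53 and 11.61 in the same populations of PWD. The PWD pachytene arrays were the highest, and all spermatid arrays lay below all others. The log fold-change was 0.55 in the first step (standard error 0.09, adjusted p = 0.00089, limma) and -1.72 in the second (standard error 0.09, adjusted p = 4.0e-06). Within the strains the rise passed in PWD (0.99, adjusted p = 0.00028) but not in B6 (0.11, adjusted p = 0.5287).

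*Kpna6* (Chr 4, 129643979 to 129672767) had small changes, with 10.18 and 10.22 in B6 prepachytene, 10.63 and 10.68 in B6 pachytene and 10.52 and 10.66 in B6 spermatids, against 10.38 and 10.36, 10.50 and 10.51 and 10.06 and 10.08 in the same populations of PWD. It rose by 0.29 into pachytene (standard error 0.07, adjusted p = 0.007, limma), a change called in B6 (0.45) and not in PWD (0.13, adjusted p = 0.2688). The fall of 0.25 into spermatids (adjusted p = 0.0272) was kept in 5 of 12 fits that left out a single array, with a highest adjusted p of 0.1087, and was lost under both other scalings, at -0.11 and -0.01. Its changes were about as large as the shift of all genes between scalings.

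*Kpna2* (Chr 11, 106988629 to 106999525) had a single probeset, which read 14.36 and 14.44 in B6 prepachytene, 14.44 and 14.11 in B6 pachytene and 14.62 and 14.66 in B6 spermatids, against 14.39 and 14.45, 14.71 and 14.47 and 14.26 and 14.44 in the same populations of PWD. All arrays lay between 14.11 and 14.71, with spermatids highest in B6 and pachytene cells highest in PWD. Its log fold-change was 0.02 into pachytene (95% interval -0.18 to 0.23, adjusted p = 0.8134, limma) and 0.06 into spermatids (-0.15 to 0.27, adjusted p = 0.7864). On centred arrays it passed in both steps, at 0.36 and 0.30, which is near the size of the shift of all genes.

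*Kpna7* (Chr 5, 144983727 to 145009636), a divergent importin alpha known from oocytes and early embryos, was detected in B6 pachytene cells and spermatids. Its arrays read 2.37 and 2.30 in B6 prepachytene, 6.00 and 5.80 in B6 pachytene and 4.97 and 5.42 in B6 spermatids, against 2.73 and 2.71, 2.68 and 2.55 and 4.07 and 5.08 in the same populations of PWD. In B6 all prepachytene arrays lay below the background level and both pachytene arrays above it, whereas both PWD pachytene arrays lay below it. It was thus at least 2.34-fold higher in pachytene than in prepachytene cells of B6 (fitted log fold-change 3.57, adjusted p = 2.8e-05, limma). In PWD both group means of this step lay below the background level, so no change can be given. Its call over both strains into pachytene, and those into spermatids under the other scalings, include groups below the level and have no known size.

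**Figure D2:**
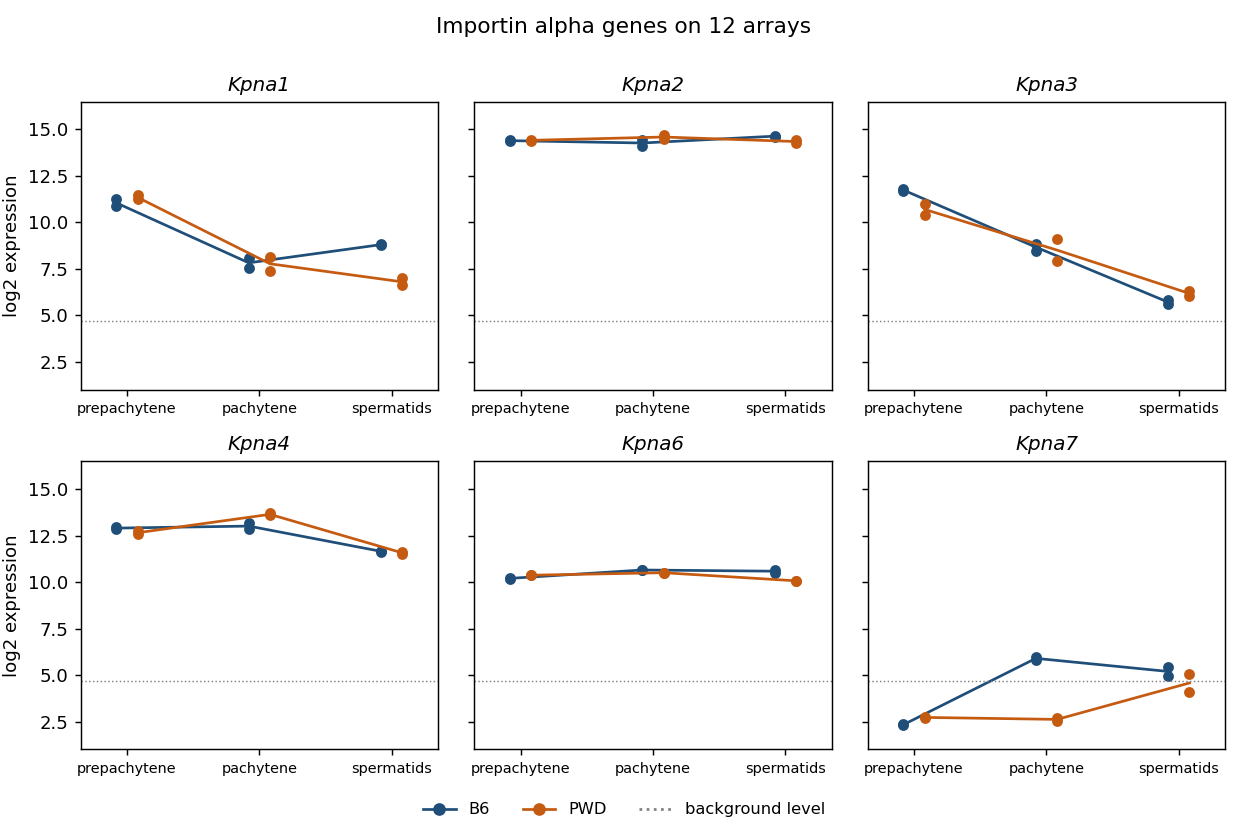
Log2 expression of the 6 importin alpha genes by population, with a point for each of the 12 arrays, lines through the means of 2 arrays for B6 (blue) and PWD (orange), and the background level of 4.68 dotted. *Kpna2* stays above 14 on every array, *Kpna1* and *Kpna3* drop into pachytene, and *Kpna7* is above the level in B6 but not in PWD pachytene cells.

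These descriptions depend on the probeset for several importin alpha genes. The second *Kpna4* probeset above the background level rose in both steps, with 5.35 and 6.09 in B6 prepachytene, 7.52 and 6.97 in B6 pachytene and 10.13 and 10.31 in B6 spermatids, against 5.77 and 7.01, 8.62 and 8.34 and 9.41 and 10.11 in the same populations of PWD. Its log fold-changes were 1.81 and 2.13 (adjusted p = 0.0016 and 0.00099, limma), and its spermatid arrays were its highest, where the brightest probeset had its lowest. For *Kpna6*, another probeset read 5.49 and 5.81 in B6 prepachytene, 8.74 and 8.79 in B6 pachytene and 11.23 and 11.14 in B6 spermatids, against 5.58 and 5.28, 9.51 and 8.83 and 10.58 and 10.89 in the same populations of PWD. It rose by 3.43 and by 1.99 (adjusted p = 7.8e-07 and 4.7e-05), while the brightest *Kpna6* probeset changed by 0.29 and -0.25. A dimmer *Kpna1* probeset read 5.69 and 5.27 in B6 prepachytene, 6.81 and 6.59 in B6 pachytene and 10.58 and 10.10 in B6 spermatids, against 4.35 and 4.63, 4.84 and 4.50 and 6.19 and 6.19 in the same populations of PWD. It rose by 0.70 into pachytene and by 2.58 into spermatids (adjusted p = 0.0066 and 1.1e-05), and was highest in B6 spermatids, whereas 3 other *Kpna1* probesets fell into pachytene with the brightest.

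In the importin beta family, 7 of the 11 genes rose into pachytene and 2 fell, and 2 rose into spermatids while 7 fell. Among the 9693 genes above the background level, 41.2% rose and 41.2% fell in the first step, and 25.7% and 41.6% in the second. *Ipo5* (Chr 14, 120896840 to 120948046) read 12.85 and 12.99 in B6 prepachytene, 13.79 and 13.61 in B6 pachytene and 15.42 and 15.35 in B6 spermatids, against 12.66 and 13.36, 14.22 and 14.02 and 14.87 and 15.25 in the same populations of PWD. The spermatid arrays were the highest in each strain. It rose by 0.94 into pachytene (standard error 0.16, adjusted p = 0.0013, limma) and by 1.31 into spermatids (standard error 0.16, adjusted p = 0.0003). *Tnpo1* (Chr 13, 98839019 to 98926384) read 9.32 and 9.45 in B6 prepachytene, 12.34 and 12.27 in B6 pachytene and 13.15 and 13.07 in B6 spermatids, against 10.62 and 10.40, 13.18 and 12.85 and 12.85 and 13.29 in the same populations of PWD. Its prepachytene arrays lay below all others in each strain. It had the largest rise of all members into pachytene, 2.71 (standard error 0.12, adjusted p = 4.2e-07). Its further rise of 0.43 (adjusted p = 0.029) was 0.81 in B6 (adjusted p = 0.0092) and 0.05 in PWD (adjusted p = 0.8953), where pachytene and spermatid arrays overlapped. It was kept in 6 of 12 fits without a single array, with a highest adjusted p of 0.0981. The windows printed above belong to these genes.

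The opposite direction was taken by *Ipo7* and *Tnpo3*. *Ipo7* (Chr 7, 110018315 to 110056609) read 11.47 and 11.35 in B6 prepachytene, 8.83 and 8.49 in B6 pachytene and 6.26 and 6.19 in B6 spermatids, against 10.61 and 11.57, 8.81 and 9.01 and 7.78 and 8.00 in the same populations of PWD. It fell by 2.47 and then by 1.73 (standard error 0.21 for each, adjusted p = 1.6e-05 and 0.00026, limma). *Tnpo3* (Chr 6, 29540827 to 29609858) read 11.65 and 11.84 in B6 prepachytene, 9.06 and 9.42 in B6 pachytene and 7.28 and 6.74 in B6 spermatids, against 12.10 and 11.95, 10.13 and 10.62 and 8.07 and 8.11 in the same populations of PWD. No population of either gene overlapped another within a strain. *Tnpo3* fell by 2.07 and then by 2.26 (standard error 0.17 for each, adjusted p = 1.2e-05 and 2.0e-05), and both of its other probesets above the background level fell in both steps.

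*Kpnb1* (Chr 11, 97159710 to 97187892), the partner of the importin alpha proteins, peaked in pachytene cells, with 11.93 and 11.76 in B6 prepachytene, 12.69 and 12.84 in B6 pachytene and 11.15 and 10.96 in B6 spermatids, against 13.01 and 12.92, 13.12 and 13.58 and 11.79 and 11.68 in the same populations of PWD. It rose by 0.65 (standard error 0.11, adjusted p = 0.0014, limma) and fell by 1.66 (standard error 0.11, adjusted p = 1.4e-05). By this probeset the rise was called in B6 (0.92) but not in PWD (0.39). In each strain the spermatid arrays were the lowest. Its other probesets above the background level did the same, with rises of 1.57 and 1.61 and falls of 1.98 and 2.08.

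Of the other family members, *Tnpo2*, a close relative of *Tnpo1*, and *Ipo8*, an importin known to bind Argonaute proteins, were also highest in pachytene cells. *Tnpo2* read 4.50 and 5.24 in B6 prepachytene, 6.80 and 6.76 in B6 pachytene and 4.31 and 3.14 in B6 spermatids, against 5.38 and 3.86, 7.51 and 7.85 and 4.40 and 4.31 in the same populations of PWD. All spermatid arrays of *Tnpo2* lay below the background level, as did single arrays of both strains in prepachytene. It rose by 2.48 into pachytene (standard error 0.38, adjusted p = 0.00073, limma) and was at least 5.88-fold lower in spermatids (fitted log fold-change -3.19, adjusted p = 0.00028). *Ipo8* read 5.67 and 5.80 in B6 prepachytene, 7.57 and 7.31 in B6 pachytene and 4.34 and 3.88 in B6 spermatids, against 5.92 and 5.76, 6.38 and 7.15 and 3.78 and 3.67 in the same populations of PWD. It rose by 1.32 (standard error 0.19, adjusted p = 0.00051) and was at least 5.38-fold lower in spermatids, all of whose arrays lay below the background level (fitted -3.18, adjusted p = 7.8e-06). *Ipo13*, which carries cargo in both directions, rose by 1.66 into pachytene (adjusted p = 1.7e-06) and then stayed level (log fold-change 0.00, 95% interval -0.22 to 0.22). *Ipo4*, a histone importer, rose by 0.63 (adjusted p = 0.0021), a change called in B6 (1.02) and not in PWD (0.23). *Ipo9* and *Ipo11* fell into spermatids, by 2.34 and 1.35 (adjusted p = 3.6e-05 and 0.00043). Into pachytene *Ipo11* changed by -0.22 over both strains (adjusted p = 0.2797) and fell in B6 by 0.82 (adjusted p = 0.0317), while its dimmer probeset fell over both strains by 0.57 (adjusted p = 0.0072) and then rose by 0.75.

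**Figure D3:**
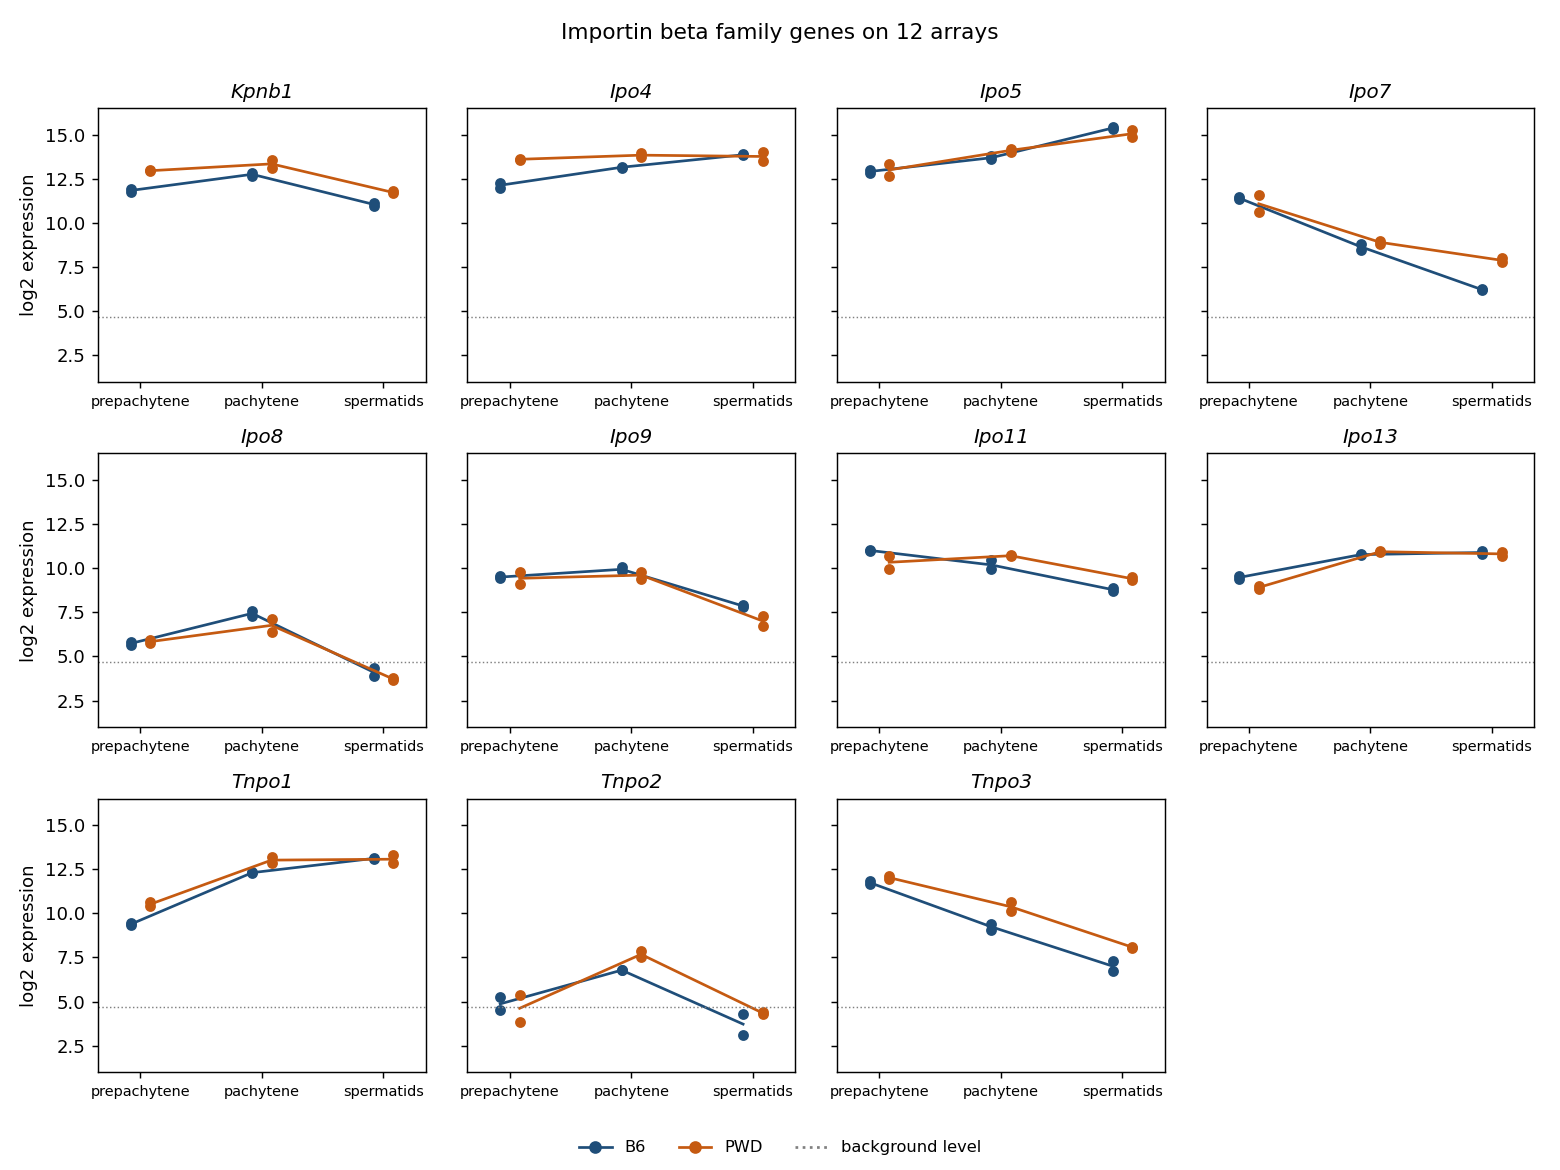
Log2 expression of the 11 importin beta family genes by population, with a point for each of the 12 arrays, lines through the means of 2 arrays for B6 (blue) and PWD (orange), and the background level of 4.68 dotted. *Ipo5* climbs from left to right, *Tnpo1* climbs into pachytene and then further in B6, *Ipo7* and *Tnpo3* descend, and *Kpnb1*, *Ipo8* and *Tnpo2* are highest in pachytene cells.

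The 2 risers of this class also had probesets that moved the other way. For *Ipo5*, the other probeset read 12.30 and 12.40 in B6 prepachytene, 11.12 and 10.95 in B6 pachytene and 8.68 and 8.74 in B6 spermatids, against 11.65 and 11.21, 11.04 and 11.87 and 8.87 and 8.96 in the same populations of PWD. It fell by 0.65 into pachytene and by 2.43 into spermatids (adjusted p = 0.0145 and 2.3e-05, limma). For *Tnpo1*, the second probeset fell by 1.34 and by 1.71 (adjusted p = 0.00027 and 0.00012), while another, dimmer probeset rose by 1.36 into pachytene. Over all members, 28 genes had several probesets above the background level. In 6 of them the first step was called in both directions and in 7 the second, whereas in 14 and 11 genes all probesets had the same call. When the probesets of a gene were averaged on each array, the log fold-change into spermatids became -0.38 for *Ipo5*, -0.46 for *Tnpo1*, 0.20 for *Kpna4* and 0.87 for *Kpna6*, each the reverse of the brightest probeset. Averaging left the falls of *Kpna3*, *Ipo7* and *Tnpo3* called. The switch as described refers to the brightest probesets.

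**Figure D4:**
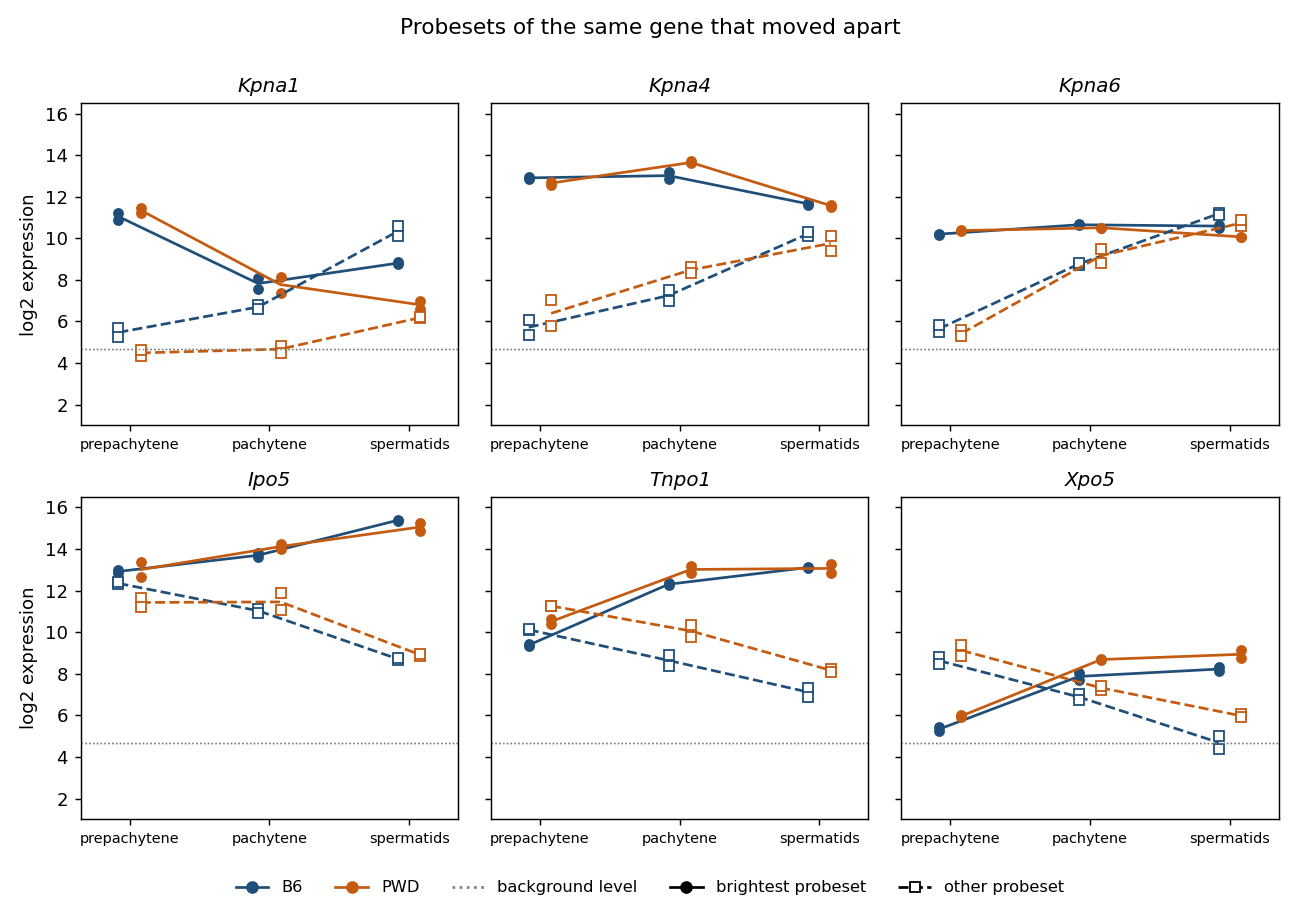
Log2 expression by population for 6 transport receptor genes, with the brightest probeset (filled circles, solid lines) and another probeset of the same gene above the background level (open squares, dashed lines) on each of the 12 arrays. Blue is B6, orange is PWD and the dotted line is the background level of 4.68. The members of each pair move apart in at least 1 step, as for *Xpo5*, whose brightest probeset rises while the other falls.

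Among the 6 exportins, 3 rose and 3 fell into pachytene (41.2% and 41.2% of the genes above the background level), and 3 fell into spermatids (41.6%). As deposited none rose into spermatids, whereas *Xpo4* (0.31 and 0.42) and *Xpo5* (0.52 and 0.54) passed as rises after repeated quantile normalization and on centred arrays. The other probeset of each gene above the background level fell in this step, by 1.29 for *Xpo4* and by 1.77 for *Xpo5* (adjusted p = 0.0054 and 0.00013, limma). *Xpo1*, the general exporter of proteins with a leucine-rich signal, read 12.29 and 12.42 in B6 prepachytene, 11.31 and 10.98 in B6 pachytene and 9.97 and 9.75 in B6 spermatids, against 13.24 and 13.53, 11.42 and 11.89 and 10.67 and 10.56 in the same populations of PWD. It fell by 1.47 and by 1.17 (standard error 0.14 for each, adjusted p = 3.3e-05 and 0.00025, limma), and its second probeset fell more, by 3.23 and 3.41. *Xpo7* read 14.16 and 14.43 in B6 prepachytene, 11.68 and 11.56 in B6 pachytene and 9.13 and 9.18 in B6 spermatids, against 14.24 and 14.64, 11.73 and 12.33 and 9.82 and 10.04 in the same populations of PWD. The populations did not overlap for either gene within a strain. *Xpo7*, an exportin of broad cargo, fell by 2.55 and by 2.28 (standard error 0.16 for each, adjusted p = 2.3e-06 and 1.4e-05). *Xpo6*, the exporter of actin with profilin, fell by 0.85 into pachytene (adjusted p = 0.00012) and then changed by -0.03 (95% interval -0.26 to 0.21).

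The exporters of small RNAs rose into pachytene. *Xpot*, which carries tRNA, read 11.10 and 10.87 in B6 prepachytene, 12.60 and 12.40 in B6 pachytene and 11.07 and 10.91 in B6 spermatids, against 10.91 and 10.75, 12.97 and 12.84 and 11.64 and 11.75 in the same populations of PWD. It was highest in the pachytene arrays of both strains, rising by 1.80 (standard error 0.09, adjusted p = 9.2e-07, limma) and falling by 1.36 (adjusted p = 1.4e-05). Both other *Xpot* probesets rose into pachytene as well, but neither passed into spermatids. *Xpo5*, which carries microRNA precursors, read 5.24 and 5.44 in B6 prepachytene, 8.05 and 7.70 in B6 pachytene and 8.15 and 8.31 in B6 spermatids, against 6.02 and 5.93, 8.65 and 8.72 and 8.74 and 9.13 in the same populations of PWD. It rose by 2.63 (standard error 0.13, adjusted p = 8.5e-07), whereas its other probeset fell by 1.77 (adjusted p = 6.7e-05). The brightest carries an s suffix, given to probesets whose probes match several transcripts, and the other does not. The brightest probesets of *Kpna1*, *Tnpo3*, *Nup43* and *Nup107* carry an s suffix too. *Xpo4* rose by 0.83 (adjusted p = 0.00046).

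Of the 19 nucleoporins, 6 rose and 10 fell into pachytene (41.2% and 41.2% of the genes above the background level). Into spermatids 7 rose and 9 fell (25.7% and 41.6%). Each nucleoporin was grouped at a single known place in the pore. All 6 members placed in the Y complex, the scaffold of the outer rings, fell into pachytene (*Nup107*, *Nup133*, *Nup160*, *Nup37*, *Nup43* and *Nup85*). Their median log fold-change was -2.25, and 41.2% of the 9693 genes above the background level fell in this step. *Nup98*, which rose by 0.67, was placed in the central channel alone. This grouping was made with the values known, and with other placements the count could differ. On centred arrays the fall of *Nup133* did not pass. The Y complex genes then divided, with *Nup160* and *Nup43* rising and the other 4 falling. *Nup160* (Chr 2, 90677215 to 90739327) read 10.26 and 10.19 in B6 prepachytene, 6.61 and 6.47 in B6 pachytene and 10.02 and 9.91 in B6 spermatids, against 10.49 and 10.79, 5.88 and 5.39 and 8.56 and 8.85 in the same populations of PWD. Its pachytene arrays were the lowest in both strains. It fell by 4.35 (standard error 0.14, adjusted p = 8.1e-08, limma) and rose by 3.25 (standard error 0.14, adjusted p = 2.2e-06). *Nup43* read 9.65 and 9.29 in B6 prepachytene, 6.87 and 6.88 in B6 pachytene and 8.97 and 9.12 in B6 spermatids, against 8.88 and 8.99, 7.97 and 7.71 and 9.30 and 9.71 in the same populations of PWD. It fell by 1.84 and rose by 1.92 (adjusted p = 7.2e-06 and 1.6e-05), and its second probeset did so too, by 1.68 and 1.17. *Nup85* fell by 2.66 and by 2.24, and its second probeset by 2.61 and 2.52. *Nup37* fell by 0.92 and 0.47, the latter kept in 5 of 12 fits without a single array (highest adjusted p = 0.1084). *Seh1l*, a Y complex gene outside the symbol rule, was at least 21.0-fold lower in pachytene than in prepachytene cells (fitted log fold-change -5.72, adjusted p = 8.5e-08), and *Sec13* did not pass (-0.11, adjusted p = 0.3525).

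In the inner ring, *Nup155*, *Nup188* and *Nup205* rose into pachytene by 0.34, 0.48 and 0.60, which is near the shift of 0.34 between scalings, and *Nup93* fell by 2.99 (standard error 0.26, adjusted p = 1.9e-05, limma). All 4 inner ring genes fell into spermatids, by 0.65 to 2.26. The rise of *Nup155* (adjusted p = 0.0317) was kept in 6 of 12 fits without a single array, with a highest adjusted p of 0.1073, its second probeset fell by 2.08, and the mean of its probesets changed by -0.56. In the central channel, *Nup62* rose into pachytene by 0.46 (adjusted p = 0.0056) and its 4 other probesets above the background level rose with it, by 0.39 to 1.35. *Nup98* rose in both steps, by 0.67 and 0.94 (adjusted p = 0.0264 and 0.0113), while its other probeset fell by 1.69 and 0.91. The first of these rises was kept in 8 of 12 fits without a single array, with a highest adjusted p of 0.0734. *Nup54* fell by 0.58 and by 1.87 (adjusted p = 0.0175 and 6.6e-05), the former lost without B6 prepachytene replicate 1, PWD prepachytene replicate 2 or PWD pachytene replicate 1, with a highest adjusted p of 0.0594, and on centred arrays.

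At the cytoplasmic face, *Nup88* fell by 1.86 and rose by 0.66 (adjusted p = 3.5e-06 and 0.0032, limma), and *Nup214* rose into spermatids by 0.40 (adjusted p = 0.0149). That rise of *Nup214* was lost without B6 pachytene replicate 1 or B6 spermatid replicate 2, with a highest adjusted p of 0.0601. In the nuclear basket, *Nup153* passed neither step over both strains by its brightest probeset, though that probeset rose into pachytene within PWD. Its other probeset above the background level fell by 0.57 into pachytene and rose by 0.65 into spermatids. *Nup50*, a basket protein known to bind importin alpha, rose into spermatids by 0.86 (adjusted p = 0.00021, limma) and its 2 other probesets fell, by 1.17 and 1.72. *Nup210* (Chr 6, 91013067 to 91118322), a glycoprotein of the pore membrane, had the largest change of all members. It read 9.36 and 9.56 in B6 prepachytene, 3.52 and 3.74 in B6 pachytene and 5.10 and 4.78 in B6 spermatids, against 10.60 and 11.26, 4.01 and 3.64 and 5.24 and 5.01 in the same populations of PWD. All 4 pachytene arrays lay below the background level, so that the fall was at least 45.9-fold (fitted log fold-change -6.47, adjusted p = 4.1e-08), and spermatids were at least 1.28-fold higher again (fitted 1.31, adjusted p = 0.00066). Its relative *Nup210l* was below the background level on all arrays but PWD pachytene replicate 2 (4.77), so its rise into pachytene has no known size.

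Over both steps, 11 members fell in both and 3 rose in both, and 9 rose into pachytene and fell into spermatids. The shares of all genes with such patterns are not given here, so these counts do not set the members apart. The 11 were *Kpna3*, *Ipo7*, *Tnpo3*, *Xpo1*, *Xpo7*, *Nup107*, *Nup133*, *Nup37*, *Nup54*, *Nup85* and *Nup93*, and the 3 were *Ipo5*, *Tnpo1* and *Nup98*. A further 4, all nucleoporins, fell and then rose (*Nup160*, *Nup210*, *Nup43* and *Nup88*). By the brightest probeset and over both strains, only *Kpna2* and *Nup153* passed neither step as deposited, and both passed in both steps on centred arrays.

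Of 41 other genes of nuclear transport listed for comparison, 37 were measured. They comprise the Ran cycle, mRNA export factors, and pore proteins and receptors with other symbols. In the first step 14 of them rose and 13 fell, against 41.2% and 41.2% of the 9693 genes above the background level. In the second 9 rose and 18 fell, against 25.7% and 41.6%. *Cse1l*, which returns importin alpha to the cytoplasm, fell by 2.55 into pachytene (adjusted p = 7.8e-07, limma) and rose by 1.03 into spermatids (adjusted p = 0.00036). It was named for this role after its values were seen. *Ran* itself passed neither step by its brightest probeset (-0.07 and -0.17, adjusted p = 0.49 and 0.2437). The largest falls into pachytene were those of *Nxf2* and *Nxf3*, members of the mRNA export factor family, at least 225-fold and at least 79.1-fold (adjusted p = 1.2e-07 and 1.1e-08), and the largest rises those of *Pom121l2* (4.54) and *Nupl2* (2.44). In the step into spermatids *Nxf2* was at least 8.94-fold higher and *Rangap1*, which stimulates GTP hydrolysis by Ran, rose by 2.81 (adjusted p = 8.9e-06), while *Ddx19b* and *Ranbp6* fell by 2.93 and 2.57.

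The strain comparison asked whether PWD and B6 differed in these genes within a population. The paper lists sequence variants of PWD relative to the B6 reference genome. Whether such variants under the probes changed the PWD signal was not tested. In prepachytene cells 11 members were higher in PWD and 3 lower, against 24.5% of the 9693 genes above the background level that were higher and 8.41% that were lower. In pachytene cells 11 were higher and 4 lower (20.3% and 6.76% of all), and in spermatids 7 were higher and 5 lower (15.0% and 9.39% of all). The median difference over all genes was 0.30, 0.34 and 0.09 in the 3 populations, against 0.16, 0.39 and 0.14 over the members. The split depends on scaling. On centred arrays, whose median was shifted by -0.27, -0.26 and -0.10, 8 members were higher and 10 lower in prepachytene, 3 and 4 in pachytene, and 9 and 6 in spermatids. After repeated quantile normalization the counts were 8 and 8, 2 and 6, and 9 and 5. Cell type markers differed between the strains as well. In prepachytene cells the Sertoli list averaged 5.92 to 6.34 in B6 and 6.87 to 7.05 in PWD, and the spermatid list 10.54 to 10.62 and 11.09 to 11.48. In pachytene cells the prepachytene list averaged 7.25 to 7.43 in B6 and 7.96 to 7.99 in PWD, and in spermatids the spermatid list 13.64 in B6 against 12.77 to 13.24 in PWD. None of these ranges overlapped, and their part in the strain differences was not tested. The calls also depended on single arrays, as 7 of 14, 4 of 15 and 7 of 12 were kept when each of the 12 arrays was left out in turn.

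*Nup107* (Chr 10, 117750621 to 117792736) was lower in PWD in all 3 populations. It read 12.90 and 12.85 in B6 prepachytene, 11.32 and 11.13 in B6 pachytene and 9.07 and 8.80 in B6 spermatids, against 11.57 and 11.53, 6.58 and 7.36 and 5.63 and 6.02 in the same populations of PWD. The strains did not overlap in any population. The PWD minus B6 difference was -1.33 in prepachytene, -4.26 in pachytene and -3.11 in spermatids (standard error 0.26 for each, adjusted p = 0.0088, 3.4e-05 and 0.00013, limma). Of these, the prepachytene difference was lost with array weights (adjusted p = 0.0713). *Nup107* had a single probeset, so that no other probeset bears on it. That probeset carries an s suffix, so its probes may match several transcripts.

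*Nup93* (Chr 8, 94214564 to 94328100) differed the other way from pachytene on. Its arrays read 12.93 and 12.99 in B6 prepachytene, 8.83 and 8.51 in B6 pachytene and 5.71 and 6.77 in B6 spermatids, against 12.66 and 13.37, 11.13 and 11.52 and 9.14 and 9.34 in the same populations of PWD. The strains overlapped in prepachytene cells and were separate afterwards. PWD was higher by 2.65 in pachytene and by 3.00 in spermatids (standard error 0.36 for each, adjusted p = 0.0026 and 0.0011, limma), and by 0.06 in prepachytene cells (adjusted p = 0.9793). *Nup37* read 12.07 and 11.69 in B6 prepachytene, 11.92 and 11.50 in B6 pachytene and 11.24 and 11.27 in B6 spermatids, against 12.16 and 11.77, 10.25 and 10.36 and 9.84 and 9.78 in the same populations of PWD. It was lower in PWD by 1.40 in pachytene and 1.44 in spermatids (adjusted p = 0.0029 and 0.0021), with no overlap in these populations. *Nup160* was also lower in PWD spermatids, by 1.26 (adjusted p = 0.0047), and *Nup133* higher there by 1.35 (adjusted p = 0.001). *Nup133* also passed in the other populations (0.55 and 0.66, adjusted p = 0.0485 and 0.0337), but with a highest adjusted p of 0.1968 and 0.1868 on leaving out a single array.

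Among the importin alpha genes, none passed between the strains in prepachytene cells by its brightest probeset, and the dimmer *Kpna1* probeset described above was lower in PWD by 0.99 (adjusted p = 0.0222, limma). *Kpna1* was lower in PWD spermatids by 2.01 (standard error 0.30, adjusted p = 0.0032, limma), and 3 of its 4 other probesets above the background level were lower there as well, by 2.43 to 4.15. *Kpna7* was at least 2.34-fold lower in PWD than in B6 pachytene cells (fitted difference -3.28, adjusted p = 0.00035). *Kpna4* was higher in PWD pachytene cells by 0.63 (adjusted p = 0.0141), a call lost without B6 pachytene replicate 2 or PWD pachytene replicate 2 (highest adjusted p = 0.0804) and on centred arrays (0.37, adjusted p = 0.0779). *Kpna6* was lower in PWD spermatids by 0.52 (adjusted p = 0.0117), a call lost without B6 spermatid replicate 2 or PWD spermatid replicate 1 (highest adjusted p = 0.0929).

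In the other receptor classes, *Xpo4* and *Ipo4* were higher in PWD prepachytene cells by 1.74 and 1.47 (adjusted p = 0.0003 and 0.00065, limma). For *Xpo4* the prepachytene arrays read 8.37 and 8.47 in B6 and 9.99 and 10.32 in PWD, without overlap, and the spermatid arrays 10.24 and 10.21 in B6 and 10.21 and 10.52 in PWD, with overlap. *Tnpo1* was higher there by 1.13 (adjusted p = 0.0029), and both other probesets above the background level were too. *Ipo7* was higher in PWD spermatids by 1.67 (adjusted p = 0.0073), with arrays at 6.26 and 6.19 in B6 and 7.78 and 8.00 in PWD. *Nup210* and *Nup214* were higher in PWD prepachytene cells by 1.47 and 0.90 (adjusted p = 0.0058 and 0.0031). *Kpnb1* was higher in PWD in all 3 populations (1.12, 0.59 and 0.68). That probeset carries an x suffix, given where probes may bind other transcripts, as does the brightest of *Nup62*. The brightest *Kpnb1* probeset without such a suffix gave -0.21, 0.32 and -0.24, none of them called. A further *Kpnb1* probeset without a suffix was called higher in PWD prepachytene cells, and in pachytene cells by 0.49 (adjusted p = 0.024, limma). It was not called in spermatids. The remaining calls, with the *Kpnb1* calls in pachytene cells and spermatids, were each lost without at least 1 single array, with highest adjusted p-values of 0.05 to 0.2199. In prepachytene cells these were *Xpo1* (1.03), *Nup50* (0.65), *Nup188* (0.56) and *Xpo6* (0.53), higher in PWD, and *Nup54* (-0.87) and *Ipo13* (-0.57), lower. In pachytene cells *Tnpo3* (1.13), *Nup43* (0.96), *Nup153* (0.90), *Xpo5* (0.81), *Tnpo1* (0.71), *Ipo4* (0.69) and *Nup155* (0.67) were higher and *Nup160* (-0.90) lower, and in spermatids *Tnpo3* (1.08), *Xpo1* (0.75) and *Xpot* (0.70) were higher. For *Ipo9* the brightest probeset passed in no population, whereas both others above the background level were lower in PWD prepachytene cells and spermatids. Of these, the one with an s suffix was lower in PWD by 3.08, 2.20 and 2.92 (adjusted p = 0.0018, 0.0132 and 0.003), reading 8.58 and 8.69 in B6 prepachytene, 8.39 and 8.03 in B6 pachytene and 7.96 and 7.89 in B6 spermatids, against 6.31 and 4.81, 6.21 and 5.82 and 4.88 and 5.13 in the same populations of PWD. *Nup62* passed in no population by its brightest probeset either. Of its 4 others, 3 were lower in PWD prepachytene cells (by 1.00, 2.57 and 1.42) and the same 3 in spermatids (by 0.78, 1.02 and 1.01), whereas the dimmest was higher in PWD pachytene cells and spermatids (2.37 and 2.38, adjusted p = 0.0072 and 0.0063).

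**Figure D5:**
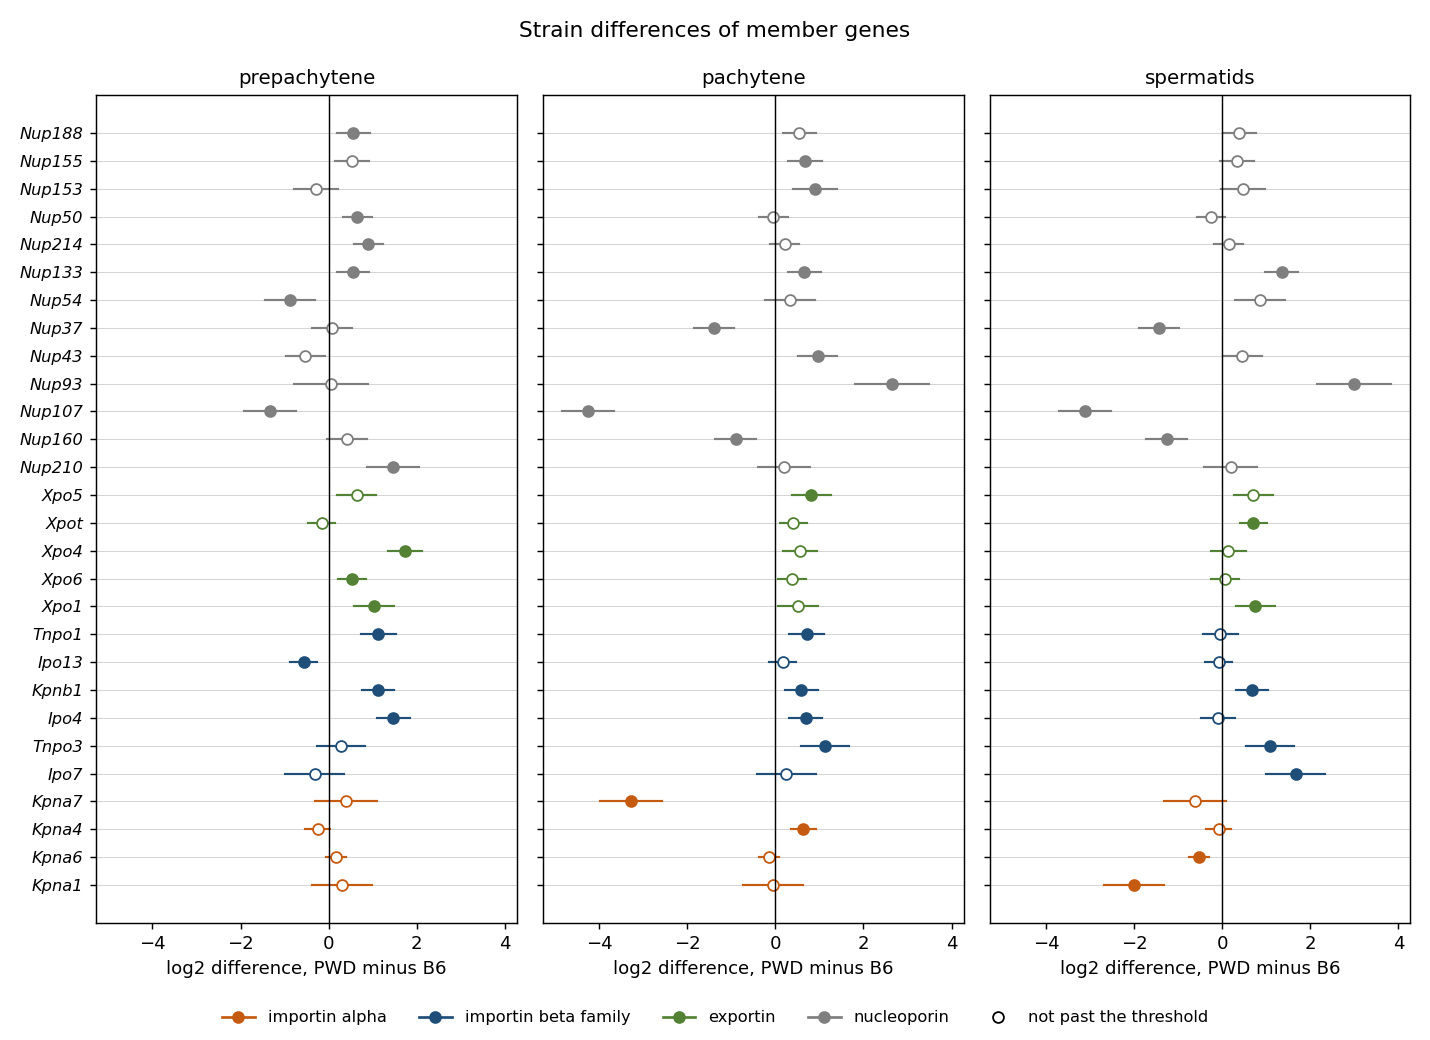
PWD minus B6 log2 differences of the 28 member genes called in at least 1 population, with the 95% confidence interval from limma as a line, for prepachytene cells, pachytene cells and spermatids. Filled circles passed the adjusted p threshold of 0.05 and open circles did not; *Nup107* lies at -1.33, -4.26 and -3.11 and *Nup93* at 0.06, 2.65 and 3.00.

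Whether the strain difference itself changed with the population was tested with an F test over the 3 populations in limma. It called 16 of the 42 members, against 24.6% of the 9693 genes above the background level, and 8 of these calls were kept when each array was left out in turn (*Ipo4*, *Kpna1*, *Kpna7*, *Nup107*, *Nup160*, *Nup37*, *Nup93* and *Xpo4*). The change into pachytene differed between the strains for 10 members, 5 with a higher change in PWD and 5 with a lower (9.10% and 7.91% of all), and the change into spermatids for *Kpna7* and *Kpna1* (1.69% and 2.16% of all).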

How the data were processed

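RNA of flow-sorted B6 and PWD cells was hybridised to Affymetrix mouse arrays, with 2 arrays for each of 6 groups. The deposited values are log2 expression normalized by the authors with GCRMA, per the submitters' processing notes, which give no version. The study's methods describe hybridisation to the Mouse Genome array whose probesets the deposited values carry, but name RMA with a custom probe definition and another array type, a Mouse Gene ST array, at the normalization step, so which normalization was used rests on the notes. Normalization before deposition sets values comparable between arrays only if most genes keep their level, and GCRMA sets dim probesets near a floor. Scanner intensities were not used here.

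Of 45101 probesets, 64 controls were left out. Of the 45037 tested, 34945 named 1 gene, 932 several and 9160 none in the platform annotation, updated through RefSeq. Differences were fitted with limma 3.58.1 (R 4.3.3) as 6 group means over 12 arrays with a trended variance prior, and p-values were Benjamini-Hochberg adjusted over all tested probesets, with a threshold of 0.05. Both strains weigh equally in a step. The script was tested on simulated data. Sequences and coordinates are from RefSeq on GRCm38.p6, whose promoter table held 41 windows of 34 members.

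The members, marker and pathway lists were chosen with earlier results of these data known. The text names every importin alpha gene, *Kpnb1*, every member called in a strain test, the 4 largest rises and falls per step, and the 2 largest of the other pathway genes. Replicate numbers were checked for pairing. Of 15 correlations of deviations between groups, ranging from -0.25 to 0.09, 0 were over 0.1 and 2 were under -0.1. Both of the latter involved PWD pachytene cells, at -0.25 with PWD prepachytene cells and -0.18 with PWD spermatids. The main fit therefore did not pair samples by number, and whether a number marks the same animal is not known. Alternatives were scaling, probeset choice, the variance prior, array weights, a replicate block, the threshold, the compared groups alone and leaving out arrays. The number of arrays limits the precision.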

Additional observations from a re-analysis of the deposited data

Results flagged for a closer look

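The listed values differ between the strains by a test of the difference itself in limma, with adjusted p-values over all probesets. Interaction values are the change in PWD minus the change in B6.

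In the step into pachytene, *Kpna7* had a fitted difference of -3.67 (adjusted p = 0.0015). B6 prepachytene cells and both PWD groups lay below the background level, so its size is not known; the rise in B6 was at least 2.34-fold, and no change can be given for PWD. *Nup107* differed by -2.93 (adjusted p = 0.0019), having fallen by 1.65 in B6 and by 4.58 in PWD. *Nup37* differed by -1.48 (adjusted p = 0.0127), *Nup160* by -1.32 (adjusted p = 0.0227) and *Xpo4* by -1.17 (adjusted p = 0.0177), the last having risen by 1.42 in B6 and by 0.24 in PWD. *Nup93* differed by 2.60 (adjusted p = 0.0162), falling by 4.29 in B6 and by 1.69 in PWD, and *Nup43* by 1.49 (adjusted p = 0.0111), falling by 2.59 and by 1.10. *Nup153* differed by 1.19 (adjusted p = 0.0449), *Kpna4* by 0.88 (adjusted p = 0.0169) and *Ipo13* by 0.73 (adjusted p = 0.0458).

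In the step into spermatids, *Kpna7* had a fitted difference of 2.67 (adjusted p = 0.0147), but both PWD group means lay below the background level, so no rise in PWD can be given. *Kpna1* differed by -1.96 (adjusted p = 0.0472), with a rise of 0.98 in B6 and a fall of 0.97 in PWD, and 3 of its 4 other probesets above the background level also passed, at -2.13 to -2.54.

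A further 7 members passed the F test of the strain difference over the populations but neither interaction. Their adjusted p was 0.0084 for *Ipo4*, 0.0269 for *Nup54*, 0.03 for *Ipo7*, 0.0319 for *Kpna6*, 0.0326 for *Tnpo1*, 0.0343 for *Nup50* and 0.0396 for *Xpot*. Of these, *Ipo4* alone was kept when each array was left out in turn.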

How the results depend on the processing

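Of the single-gene values recomputed under the alternatives, 2863 kept direction and side of the threshold, 420 lost their call, 7 gained one and 11 changed sign. The causes were not tested. Averaging the probesets of a gene turned the first step of *Nup155* (-0.56) and *Nup98* (-0.51), the second of *Ipo5* (-0.38), *Tnpo1* (-0.46), *Nup50* (-0.67), *Kpna4* (0.20) and *Kpna6* (0.87), and the prepachytene strain difference of *Nup133* (-0.003). Without s and x suffixes, *Xpo5* changed by -1.77 into pachytene and *Kpnb1* differed between strains by -0.21 in prepachytene cells and -0.24 in spermatids.

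Counts moved mostly in strain comparisons. Repeated quantile normalization gave 14 rises into spermatids, 8 members lower in PWD prepachytene cells and 2 higher in PWD pachytene cells. Centring gave 16 such rises, 10 lower and 3 higher, with 23 and 14 rises of other pathway genes in the 2 steps. For prepachytene cells, probesets above the background level gave 5 lower, averaged probesets 7 higher and 5 lower, array weights 6 and 0, and the compared groups alone 1 lower. The 2 PWD arrays with more spermatid marker signal left out, chosen after seeing the data, gave 5 lower. At an adjusted p of 0.01 there were 7 higher and 1 lower in prepachytene cells, 1 higher in pachytene cells, 3 higher in spermatids and 4 by the F test. The compared groups alone gave 1 higher and 2 lower in pachytene cells and 2 higher in spermatids; the F test was not run so. A replicate block, over all groups or within each strain, left 5 members higher in PWD pachytene cells, and a block with the PWD pachytene numbers crossed, added after seeing the data, 7. It moved no other count by over 1.5 times.

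Leaving out each array in turn gave 7 to 12 higher and 1 to 5 lower in PWD prepachytene cells, 2 to 10 and 3 to 4 in pachytene cells, 3 to 9 and 4 to 6 in spermatids, and 9 to 17 by the F test. The steps gave 17 to 19 rises and 16 to 18 falls into pachytene and 7 to 11 and 20 to 22 into spermatids, and 33 of 36 and 27 of 31 calls were kept without each array. Differences near the background level are compressed or only bounded.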
